A study of Mus musculus with 4 samples.

Results

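The circadian clock genes Arntl, Clock, Npas2, Per1, Per2, Per3, Nr1d1, Nr1d2, Dbp and Tef were followed through the left ventricle of young and aged mice with and without ischemia/reperfusion (I/R). The 10 genes were picked by symbol from the 32285 features of the count matrices, and 10 of 10 were present. For each gene the unique molecular identifiers (UMIs, 1 per captured transcript molecule) were summed over all barcodes of a library and given per 1000000 UMIs of that library (CPM). Every library thus behaves here like 1 bulk sample, in which fewer cells of a type and less RNA per cell cannot be told apart.

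The series holds 4 droplet libraries, made with a 3′ kit from the left ventricle of male wild-type C57BL/6J mice, with 1 sham and 1 I/R library at each of 2 ages. Young mice were 3 to 5 months old and aged mice 24 to 26 months old. The I/R mice had 45 min of ischemia by surgery on the left anterior descending coronary artery and 24 h of reperfusion, while the labels describe the mice called sham here as healthy and unaltered and the study describes them as sham operated. The molecule is nuclear RNA according to the labels, whereas the study speaks of single cells. The number of mice in a library and the time of day at which hearts were taken are not given in the sources used here. With 1 library per condition no difference could be tested, so each value carries a 95% interval that covers counting error only, and a ratio of at least 2-fold is named as a size, not as a significant change.

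The mammalian clock is a loop of transcription and repression that runs in nearly every cell, cardiomyocytes included. ARNTL (also called BMAL1) pairs with CLOCK or its relative NPAS2 and binds E-box motifs in the genes of their own repressors, the PER and CRY proteins, and of the nuclear receptors NR1D1 and NR1D2 (REV-ERBα and β), which in turn repress Arntl, Clock and Npas2. The same activators drive Dbp and Tef, which encode PAR bZIP proteins that bind D-box motifs, so these genes count as output of the clock. In mouse peripheral tissues the messages are known to peak in the order Nr1d1, then Dbp, Per3 and Nr1d2, then Per1 and Per2, then Cry1, with Arntl and Npas2 opposite in phase to Dbp.

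The members fell into 3 genes of the positive limb (Arntl, Clock, Npas2), 5 of the negative limb (Per1, Per2, Per3, Nr1d1, Nr1d2) and 2 output genes (Dbp, Tef). The Per3 and Per1 promoters are shown because these paralogs went in opposite directions after I/R in young mice. The sequences are from RefSeq, build GRCm38.p6, and hold the 250 bases before the annotated start, 5′ to 3′ on the strand of the gene, with D-boxes (Per3) and the E-box (Per1, the first of its 2 starts in RefSeq) in capitals. They lie at chr4:151044666-151044915 on the minus strand and at chr11:69098699-69098948 on the plus strand.
Per3: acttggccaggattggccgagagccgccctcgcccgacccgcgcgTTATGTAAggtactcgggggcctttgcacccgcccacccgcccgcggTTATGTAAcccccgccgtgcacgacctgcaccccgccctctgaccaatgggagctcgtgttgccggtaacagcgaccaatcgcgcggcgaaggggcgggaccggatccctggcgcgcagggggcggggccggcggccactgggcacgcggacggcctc
Per1: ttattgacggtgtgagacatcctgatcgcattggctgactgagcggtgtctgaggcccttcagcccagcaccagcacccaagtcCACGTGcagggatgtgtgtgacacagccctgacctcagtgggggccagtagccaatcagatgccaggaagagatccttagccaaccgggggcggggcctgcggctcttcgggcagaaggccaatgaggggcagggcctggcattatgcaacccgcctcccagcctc

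Promoters of 9 of the 10 members were in the RefSeq table, each with 250 bases before and 50 after the start, and both strands were searched. The D-box was taken as TTATGTAA or TTACGTAA and the E-box as CACGTG. The RORE is the motif of NR1D1, NR1D2 and the ROR receptors, and the CRE, the cyclic AMP response element, was taken as TGACGTCA. Of the 9 members searched, Per3 alone held a D-box, with copies starting 205 and 158 bases before the start, and 1.06% of all 32851 promoters held one. The E-box was found in 1 of the 2 Per1 promoters, the one printed, 166 bases before the start, and in both promoters of Tef, against 7.15% of all promoters. A RORE was found in 1 of the 2 Arntl promoters, against 0.435% of all promoters. The CRE was in none of the members and in 1.79% of all promoters. These matches describe the letters of the windows only.

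The 4 libraries held 25836175, 39673199, 41356670 and 66767829 UMIs in 92200, 102883, 100342 and 91124 barcodes, in the order sham and I/R of young mice, then sham and I/R of aged mice. The median barcode held 244, 374, 391 and 675 UMIs. Members had between 57 UMIs (Npas2 in young I/R) and 6813 UMIs (Tef in aged I/R) in a library. The median ratio of all tested genes (at least 50 UMIs over both libraries) was not at 0: the log2 median was -0.48 for young I/R over young sham, 0.09 for aged I/R over aged sham, -0.14 for aged over young sham and 0.45 for aged over young I/R. Of the UMIs, the nuclear transcript Malat1 held 7.34%, 2.22%, 2.88% and 4.33%, and the mitochondrial genes held 10.0%, 14.1%, 15.6% and 9.98%. Between 2366 and 2843 barcodes were shared between pairs of libraries.

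Arntl was the flattest member. It measured 13.8 CPM (sham) and 12.3 CPM (I/R) in young mice, against 12.9 CPM (sham) and 12.3 CPM (I/R) in aged mice, and all neighbours in this order of levels overlapped in their counting intervals. The gene (ENSMUSG00000055116, chr7:113207465-113314126, plus strand) encodes the activator that the loop cannot run without. Its log2 ratio was -0.16 (-0.36 to 0.04) for young I/R over sham and -0.07 (-0.23 to 0.09) for aged I/R over sham. Under scaling by the median of gene-wise ratios the young value was 0.27, so its direction in young mice depends on the scale.

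Clock, the histone acetyltransferase partner of ARNTL (ENSMUSG00000029238, chr5:76209868-76304792, minus strand), had ratios of opposite sign in the 2 age groups. It measured 75.6 CPM (sham) and 43.7 CPM (I/R) in young mice, against 49.6 CPM (sham) and 78.2 CPM (I/R) in aged mice. The high libraries were young sham and aged I/R, whose intervals overlapped, and the low ones were young I/R and aged sham. I/R over sham gave a log2 ratio of -0.79 (-0.89 to -0.70) in young and 0.66 (0.58 to 0.73) in aged mice. Relative to genes of like genomic span, an alternative chosen after seeing the data, the young ratio was -0.08 and the aged one 0.43, so the young difference rests on the scale. Npas2, the CLOCK relative (ENSMUSG00000026077, chr1:39193731-39363236, plus strand), was the scarcest member, with 76, 57, 121 and 193 UMIs. It measured 2.94 CPM (sham) and 1.44 CPM (I/R) in young mice, against 2.93 CPM (sham) and 2.89 CPM (I/R) in aged mice. Young I/R alone was low, and the other 3 libraries overlapped.

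**Figure D1:**
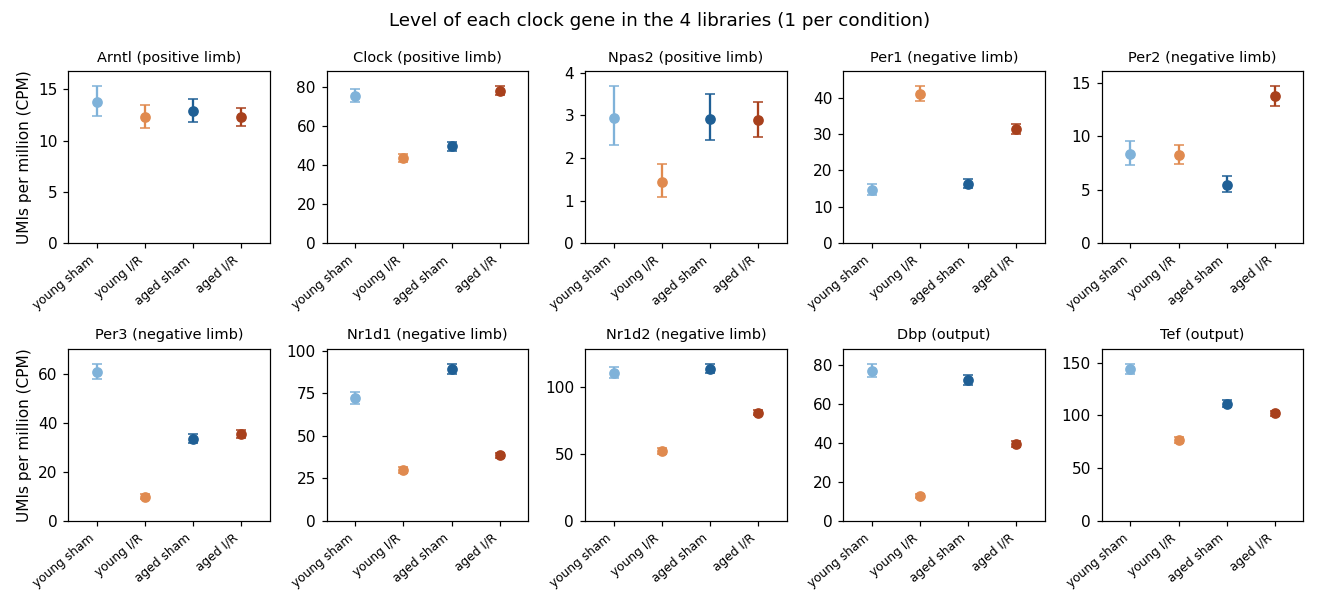
Level of each clock gene in CPM (y axis, from 0) in the 4 libraries (x axis), 1 point per library, with exact Poisson 95% intervals for counting error only. Arntl stays between 12.3 and 13.8 CPM, Nr1d1 and Dbp are high in both sham libraries, Per1 is high in both I/R libraries, and Per3 and Dbp are lowest in young I/R at 9.81 and 12.9 CPM.

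The 3 Period genes encode partners of the cryptochromes in the repressor complex, and they did not move together. Per1 (ENSMUSG00000020893, chr11:69095217-69109960, plus strand) measured 14.6 CPM (sham) and 41.0 CPM (I/R) in young mice, against 16.3 CPM (sham) and 31.4 CPM (I/R) in aged mice. Both I/R libraries were above both sham libraries, and the sham libraries overlapped. The I/R level was 2.81-fold the sham level in young mice, a log2 ratio of 1.49 (1.33 to 1.66), and 1.93-fold in aged mice, a log2 ratio of 0.95 (0.82 to 1.08).

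Per2 (ENSMUSG00000055866, chr1:91415982-91459324, minus strand) measured 8.40 CPM (sham) and 8.24 CPM (I/R) in young mice, against 5.49 CPM (sham) and 13.8 CPM (I/R) in aged mice. The aged I/R library was the high one, and the young libraries overlapped. The log2 ratio was -0.03 (-0.28 to 0.23) in young mice, with 0.41 under the median-of-ratios scaling and -0.34 over barcodes with at least 200 genes, and 1.33 (1.12 to 1.54) in aged mice, a 2.51-fold higher level. Per1 and Per2 also respond to glucocorticoid and cyclic AMP signals, apart from the E-box.

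Per3, a weaker repressor than its paralogs (ENSMUSG00000028957, chr4:151003652-151044665, minus strand), measured 60.8 CPM (sham) and 9.81 CPM (I/R) in young mice, against 33.5 CPM (sham) and 35.4 CPM (I/R) in aged mice. Young sham was high, young I/R was low, and the aged libraries overlapped between them. In young mice the I/R level was 6.20-fold lower, a log2 ratio of -2.63 (-2.80 to -2.47), and 1.35% of the tested genes lay below it. In aged mice the log2 ratio was 0.08 (-0.01 to 0.18).

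Nr1d1, the heme-binding repressor of Arntl (ENSMUSG00000020889, chr11:98767932-98775333, minus strand), was lower after I/R at both ages. It measured 72.1 CPM (sham) and 29.9 CPM (I/R) in young mice, against 89.2 CPM (sham) and 38.5 CPM (I/R) in aged mice. Both sham libraries were above both I/R libraries with no overlap. The I/R level was 2.41-fold lower in young mice, a log2 ratio of -1.27 (-1.38 to -1.16), and 2.32-fold lower in aged mice, a log2 ratio of -1.21 (-1.29 to -1.14). The young ratio minus the aged ratio was -0.06 (-0.19 to 0.07), but under the median-of-ratios scaling the ratios were -0.84 in young and -1.30 in aged mice, so their likeness depends on the scale. Of all tested genes 15.6% had a lower ratio in young mice and 1.04% in aged mice, where the medians of all genes lay at -0.48 and 0.09.

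Exons of Nr1d1 overlap those of Thra, the thyroid hormone receptor gene on the opposite strand, and the strand setting of the counting is not given in the sources used here. Thra measured 95.9 CPM (sham) and 42.6 CPM (I/R) in young mice, against 80.8 CPM (sham) and 104 CPM (I/R) in aged mice. It was lower after I/R in young mice, with a log2 ratio of -1.17 (-1.26 to -1.08), but not in aged mice, with 0.36 (0.30 to 0.42). Exons of Dbp overlap Sphk2 on the opposite strand, and Sphk2 lay between 10.8 and 12.3 CPM in the 4 libraries. The opposite-strand overlaps of Arntl (Gm45355) and Tef (Gm17597) held at most 4 UMIs in a library. How reads of these overlaps were divided was not tested.

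Nr1d2, the related receptor (ENSMUSG00000021775, chr14:18204054-18239127, minus strand), followed the order of Nr1d1. It measured 111 CPM (sham) and 52.4 CPM (I/R) in young mice, against 114 CPM (sham) and 81.1 CPM (I/R) in aged mice. The sham libraries overlapped and lay above both I/R libraries. I/R over sham gave a log2 ratio of -1.08 (-1.16 to -0.999) in young and -0.49 (-0.55 to -0.43) in aged mice.

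Dbp, the D-box activator of output genes (ENSMUSG00000059824, chr7:45705088-45710203, plus strand), measured 77.1 CPM (sham) and 12.9 CPM (I/R) in young mice, against 72.4 CPM (sham) and 39.5 CPM (I/R) in aged mice. The sham libraries overlapped, and aged I/R lay between them and young I/R. The I/R level was 5.97-fold lower in young mice, a log2 ratio of -2.58 (-2.72 to -2.44), and 1.83-fold lower in aged mice, a log2 ratio of -0.87 (-0.95 to -0.80). The difference between the ages was -1.71 (-1.87 to -1.55) on the log2 scale. Tef, its PAR bZIP relative (ENSMUSG00000022389, chr15:81802421-81826863, plus strand), measured 144 CPM (sham) and 76.6 CPM (I/R) in young mice, against 111 CPM (sham) and 102 CPM (I/R) in aged mice. No neighbouring libraries overlapped, and I/R over sham gave a log2 ratio of -0.91 (-0.98 to -0.84) in young and -0.12 (-0.18 to -0.07) in aged mice.

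Counted by size, 1 member (Per1) was at least 2-fold higher after I/R in young mice, where 2.72% of 13746 tested genes were, and 5 members (Npas2, Per3, Nr1d1, Nr1d2, Dbp) were at least 2-fold lower, where 24.5% were. Under the median-of-ratios scaling 2 members, Per3 and Dbp, were at least 2-fold lower. The share of all genes was not counted on that scale, so the 24.5% does not apply to this count. In aged mice 1 member (Per2) was at least 2-fold higher after I/R, with 4.47% of 14981 tested genes, and 1 member (Nr1d1) was at least 2-fold lower, with 2.03%. The median log2 ratio of the members in young and aged mice was -0.97 and -0.04, beside -0.48 and 0.09 over all tested genes.

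**Figure D2:**
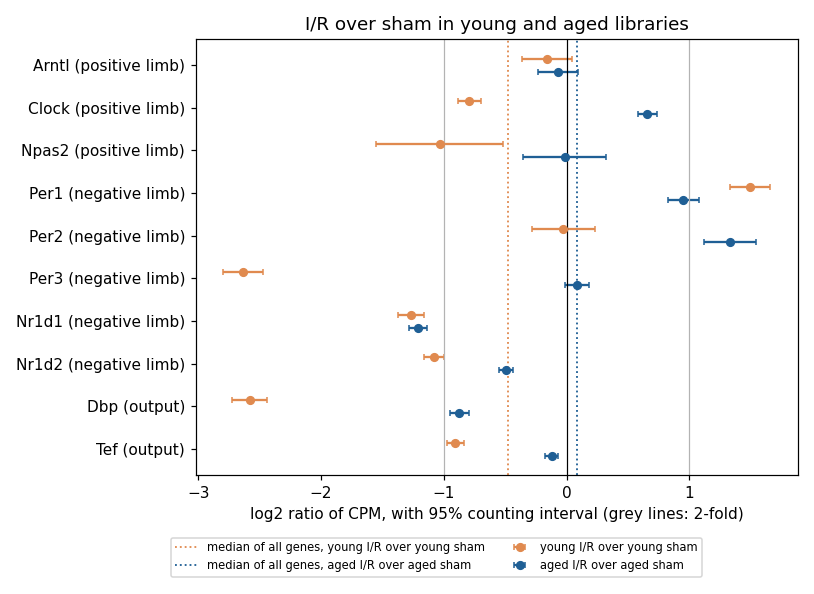
Log2 ratio of CPM (x axis) of I/R over sham for the 10 clock genes (y axis), in young (orange) and aged (blue) mice, with 95% counting intervals, 2-fold lines in grey and the median of all tested genes dotted. Nr1d1 lies at -1.27 and -1.21, Per1 at 1.49 and 0.95, Arntl near 0 at both ages, while Clock, Per2, Per3 and Dbp are set apart by age.

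Taken by limb, the mean of the output genes differed more than that of either limb. It was carried by Dbp, at -2.58 in young and -0.87 in aged mice. Tef was at -0.91 and -0.12, a smaller change than that of Nr1d1 at -1.27 and -1.21. In young mice the mean log2 ratio was -0.66 (-0.84 to -0.48) for the positive limb, -0.70 (-0.78 to -0.63) for the negative limb and -1.74 (-1.82 to -1.67) for the output genes. In aged mice the means were 0.19 (0.07 to 0.31), 0.13 (0.08 to 0.19) and -0.50 (-0.54 to -0.45). The positive and negative limbs had nearly equal means at each age on this scale, although the negative mean covers members from 1.49 to -2.63 in young mice and from 1.33 to -1.21 in aged mice.

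The limb contrast, which is the mean ratio of the 7 negative limb and output genes minus that of the 3 positive limb genes and does not move with the scaling of the libraries, was -0.34 (-0.53 to -0.15) in young and -0.24 (-0.37 to -0.11) in aged mice. The young value minus the aged value was -0.10 (-0.33 to 0.13). The ratio of all genes varied with their genomic span, and the 3 positive limb genes are in the group of the longest. From the shortest to the longest of 5 equal groups of genes by span, the median log2 ratio went from -0.27 to -0.72 in young mice and from -0.05 to 0.23 in aged mice. Relative to the group of like span, the same added alternative, the positive and negative means in young mice were 0.05 and -0.25, the contrast was -0.63 in young and -0.07 in aged mice, Arntl in young mice stood at 0.55 and Clock at -0.08, and Per3, Dbp and Per1 in young mice at -2.09, -2.30 and 1.87.

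**Figure D3:**
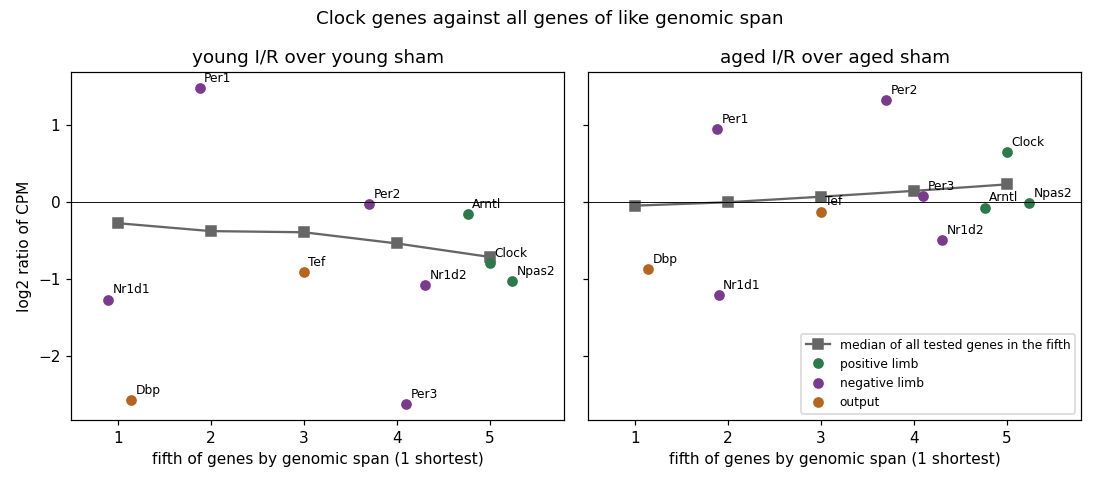
Log2 ratio of I/R over sham (y axis) against the group of genes by genomic span, 1 shortest to 5 longest (x axis; points are shifted sideways for legibility), for young (left) and aged (right) mice; grey squares are medians of all tested genes in a group. In young mice the medians fall from -0.27 to -0.72 and Dbp, Per3 and Per1 lie far from them, while in aged mice they rise from -0.05 to 0.23.

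Ratios of UMIs between clock genes within a library need no scaling, but each is read only from library to library, since UMIs of different genes are not on a common scale per molecule. They are not free of the trend with genomic span, since Dbp is in the group of the shortest genes and Arntl in that of the longest. Relative to genes of like span, Dbp and Arntl were at -2.30 and 0.55 in young and -0.83 and -0.30 in aged I/R over sham. Dbp to Arntl, a pair of opposite phase, stood at 5.60 (5.00 to 6.28) in the sham and 1.05 (0.92 to 1.19) in the I/R library of young mice, and at 5.60 (5.11 to 6.15) and 3.21 (2.97 to 3.48) in those of aged mice. The sham libraries of the 2 ages could not be separated by this ratio, and the I/R libraries lay below them and apart from each other. Nr1d1 to Arntl was 5.23, 2.43, 6.90 and 3.13 in the same order, so it too was lower in both I/R libraries. Per3 to Arntl did not share this, at 4.41, 0.80, 2.59 and 2.88. It was lower after I/R in young mice only, its sham libraries were apart, and its aged libraries overlapped. Tef to Clock was 1.90, 1.75, 2.24 and 1.30, with overlapping intervals in the young libraries.

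Per1 to Nr1d1, a later over an earlier message, was 0.202 without and 1.37 with I/R in young mice, and 0.183 without and 0.817 with I/R in aged mice. Per2 to Nr1d1 was 0.117, 0.276, 0.0616 and 0.358. Both ratios were higher in the I/R libraries than in the sham libraries at each age. The ratio of the paralogs Per1 and Per3 was 0.240, 4.19, 0.486 and 0.888, highest in young I/R. This restates the young I/R over sham ratios of 1.49 for Per1 and -2.63 for Per3 and adds no separate evidence. Of all pairs given, only Dbp to Arntl and Per2 to Nr1d1 were planned, and the others were added.

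**Figure D4:**
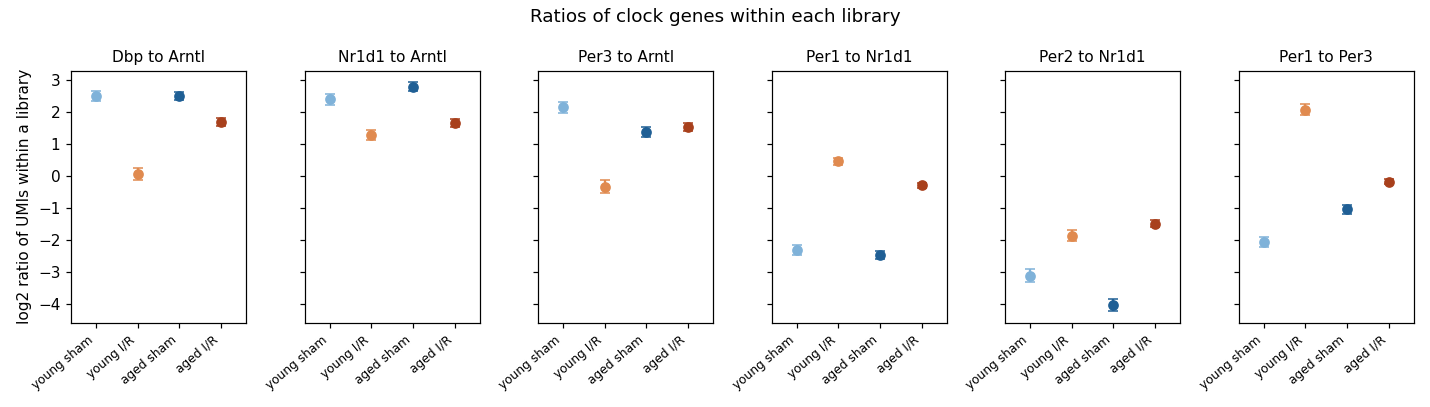
Log2 ratio of UMIs of 6 pairs of clock genes (y axis, shared) within each library (x axis), with exact 95% counting intervals. Dbp to Arntl is equal in the 2 sham libraries and lower after I/R. Per3 to Arntl is lower after I/R in young mice only. Per1 to Nr1d1 and Per2 to Nr1d1 are higher after I/R at both ages. Levels are compared between libraries, not between panels.

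Set against the known order of peaks, the early message Nr1d1 was lower and the later message Per1 was higher in the I/R libraries of both ages, and Per2 was higher in the aged one. Dbp and Nr1d2, which follow Nr1d1, were lower at both ages, and Per3 was at -2.63 in young and 0.08 in aged mice. Among the PAR bZIP relatives of Dbp, Tef was at -0.91 in young and -0.12 in aged mice, and Hlf at -1.22 and 0.34 (0.19 to 0.48). Cry1, which peaks after the Period genes, measured 4.92 CPM (sham) and 9.02 CPM (I/R) in young mice, against 6.80 CPM (sham) and 7.74 CPM (I/R) in aged mice. Its log2 ratio was 0.88 (0.58 to 1.18) in young and 0.19 (-0.02 to 0.40) in aged mice. Cry1 was named after its values were seen. Of the messages that peak opposite to Dbp, Npas2 was at -1.03 (-1.56 to -0.52) in young mice, the direction of Dbp, and at -0.02 (-0.35 to 0.32) in aged mice. Its young value was -0.60 under the median-of-ratios scaling and -0.32 relative to genes of like span, and 23.2% of all tested genes lay below it. Arntl in young mice was at -0.16 on the scale of total UMIs, at 0.27 under the median-of-ratios scaling and at 0.55 relative to genes of like span, so whether it moved against Dbp depends on the scale. No phase was fitted, since the hour of collection is not given and each condition is a single library: a difference in that hour, in the phase and in the level of the genes cannot be told apart.

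**Figure D5:**
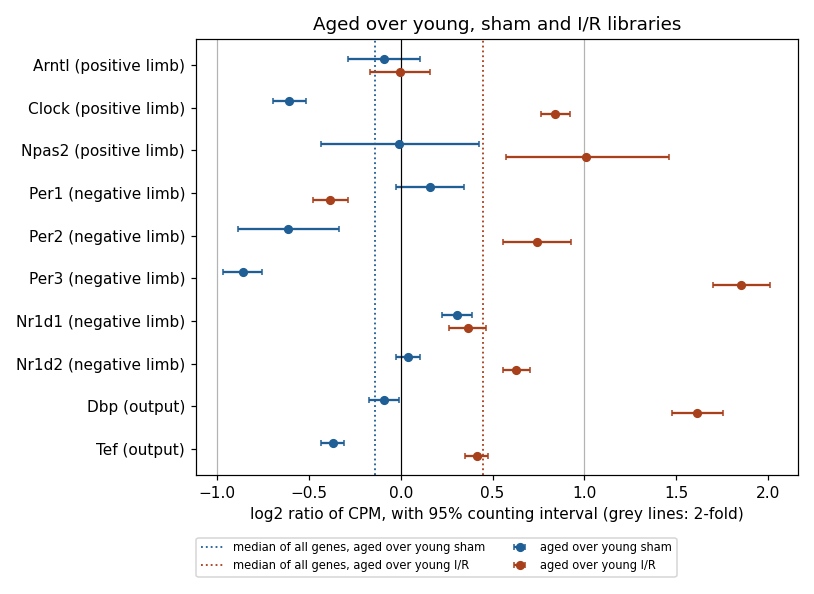
Log2 ratio of CPM (x axis) of aged over young libraries for the 10 clock genes (y axis), in sham (blue) and I/R (red) libraries, with 95% counting intervals, 2-fold lines in grey and the median of all tested genes dotted. No member is past 2-fold between the sham libraries, and Per3, Dbp and Npas2 are at 1.85, 1.61 and 1.01 between the I/R libraries.

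Between the sham libraries of the 2 ages 0 members were at least 2-fold higher in aged mice, beside 2.32% of 14170 tested genes, and 0 were at least 2-fold lower, beside 5.73%. Over barcodes with at least 200 genes or with 250 to 750 UMIs, Per3 was past 2-fold lower, at -1.10 and -1.06. Over all barcodes Per3 differed most, with a log2 ratio of -0.86 (-0.97 to -0.76), followed by Per2 at -0.61 (-0.89 to -0.34) and Clock at -0.61 (-0.70 to -0.52). Tef was at -0.37 (-0.43 to -0.31) and Nr1d1 at 0.31 (0.23 to 0.39). For Arntl, Npas2, Per1 and Nr1d2 the intervals held 0, and for Dbp the ratio was -0.09 (-0.17 to -0.01), with 0.05 under the median-of-ratios scaling. The limb contrast was 0.03 (-0.13 to 0.20).

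Between the I/R libraries 3 members (Npas2, Per3, Dbp) were at least 2-fold higher in aged mice, beside 18.9% of 14719 tested genes, and 0 were at least 2-fold lower, beside 1.05%. Per3 was 3.61-fold higher, a log2 ratio of 1.85 (1.70 to 2.01), and Dbp 3.06-fold higher, a log2 ratio of 1.61 (1.48 to 1.75). Npas2 was at 1.01 (0.58 to 1.46) on 57 and 193 UMIs. Its ratio was 0.83 without the abundant transcripts and 0.63 under the median-of-ratios scaling. It was 0.998 over barcodes with at least 200 genes and 0.988 over those with 250 to 750 UMIs. Under each of these, 2 members were at least 2-fold higher. Per1 was lower in aged mice, at -0.38 (-0.48 to -0.29), and Arntl was at -0.00 (-0.17 to 0.16). Arntl was at -0.39 under the median-of-ratios scaling and -0.69 relative to genes of like span, so its value depends on the scale. These ratios share their libraries with those of I/R over sham and add no separate evidence.

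A list of 15 further clock genes was read in the same way, and 15 of 15 had enough UMIs. In young mice 0 were at least 2-fold higher after I/R and 3 were at least 2-fold lower: Hlf, the remaining PAR bZIP gene, Btrc, a ubiquitin ligase subunit that acts on PER proteins, and Arntl2, a paralog of Arntl. Over all tested genes 2.72% were at least 2-fold higher and 24.5% lower, so the 3 lower genes are within the background. The list median was -0.53, beside -0.48 over all genes. Hlf measured 26.0 CPM (sham) and 11.1 CPM (I/R) in young mice, against 13.7 CPM (sham) and 17.3 CPM (I/R) in aged mice, so it shared the low value of Dbp and Tef in young I/R but not the order of the aged libraries. Btrc measured 27.1, 11.7, 19.5 and 19.9 CPM and Arntl2 7.90, 3.03, 5.25 and 7.46 CPM. In aged mice 0 of 15 were at least 2-fold higher or lower, beside 4.47% and 2.03% of all tested genes. The list median was 0.19, beside 0.09 over all genes. Between the I/R libraries Arntl2 alone was at least 2-fold higher in aged mice, at 1.30 (1.01 to 1.60), and 0 were at least 2-fold lower. Over all tested genes 18.9% were higher and 1.05% lower, so this too is within the background.

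Nfil3, the D-box repressor that opposes DBP, was higher after I/R at both ages, with log2 ratios of 0.79 (0.55 to 1.04) in young and 0.77 (0.53 to 1.01) in aged mice, the reverse of Dbp. Cry1 was at 0.88 (0.58 to 1.18) in young and 0.19 (-0.02 to 0.40) in aged mice, and Cry2 at -0.79 (-0.93 to -0.65) and 0.12 (0.02 to 0.23). Nfil3, Cry1 and Cry2, and the genes named from the lists that follow, were named after their values were seen. Among 10 genes under clock control in other work, 1 was at least 2-fold higher (Tspan4, at 1.64) and 1 at least 2-fold lower (Kcnip2, a potassium channel subunit, at -1.15) in young mice, beside 2.72% and 24.5% of all tested genes, with 0 in aged mice, beside 4.47% and 2.03%. Their medians were 0.13 and 0.14.

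Per1 and Per2 also respond to glucocorticoid and growth signals, so targets of these were read beside them. Of 8 glucocorticoid targets, 2 were at least 2-fold higher after I/R in young mice (Fkbp5 and Cdkn1a) and 0 lower, beside 2.72% and 24.5% of all tested genes, with a list median of 0.83. In aged mice 2 were higher (Fkbp5 and Zbtb16) and 1 lower (Dusp1), beside 4.47% and 2.03%, with a median of 0.50. Fkbp5, a chaperone induced by the glucocorticoid receptor, measured 13.9 CPM (sham) and 65.3 CPM (I/R) in young mice, against 10.6 CPM (sham) and 56.3 CPM (I/R) in aged mice, high in both I/R libraries as Per1 was. Zbtb16 (0.90 in young and 1.77 in aged mice), Errfi1 (0.96 and 0.70) and Cdkn1a (2.82 and 0.64) were also higher after I/R at both ages. The rest of the list did not share this. Dusp1 was lower after I/R at both ages (-0.89 and -1.26), and Klf9 was at -0.03 and 0.37. Tsc22d3 and Sgk1 were higher in young (0.75 and 0.47) and lower in aged mice (-0.31 and -0.39). Of 8 immediate early genes, 2 were at least 2-fold higher in young mice (Fosb, Atf3), and 1 was higher (Atf3) and 1 lower (Egr1) in aged mice, against the same shares of all genes, with medians of 0.23 and -0.08. The part of either signal in the Per1 values was not tested.

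The genes whose profile over the 4 libraries was nearest to that of Dbp, by Euclidean distance between centred log2 CPM among 11871 genes, were Fndc1, Col4a4, Dnaaf3, Ky and Blnk, at distances from 0.25 to 0.34. Col4a4 measured 35.8, 6.96, 30.0 and 17.4 CPM. The genes nearest to Arntl were Tmem230, Pdxk, Tcaim, Adgra2 and Pxmp2, at distances from 0.02 to 0.03. Members were left out of this ranking beforehand, and with 4 points many genes can share a profile.

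Members were too sparse to be read in single barcodes: a member was seen in between 0.0554% of barcodes (Npas2 in young I/R) and 7.11% (Tef in aged I/R), with at most 4 UMIs in a barcode. A threshold of 2 marker UMIs did not part the barcodes into cell types for this purpose either. The study annotated clusters as cardiomyocytes, endothelial cells, fibroblasts and macrophages, and no clustering was run here. In the young sham library cardiomyocyte markers took 11.0% of the UMIs of all barcodes, and 10.8%, 10.4% and 10.2% in barcodes with at least 2 UMIs of endothelial, fibroblast or macrophage markers. The members were therefore read along the cardiomyocyte share instead, in 3 equal ranges of the barcodes with at least 200 UMIs, which are ranges and not cell types. From low to high, cardiomyocyte markers took 8.20%, 10.9% and 13.7% of UMIs in young sham. In young I/R they took 7.91%, 9.69% and 11.6%. In aged sham they took 8.43%, 10.3% and 12.2%, and in aged I/R 10.2%, 11.9% and 13.9%. The ranges were cut within each library, so the same range covers unlike shares in different libraries. Such near shares part cells little, so a ratio kept over the ranges does not speak to cell types.

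Over the low, middle and high ranges some members kept the size of their young I/R over sham ratio and others did not. Dbp was at -2.48, -2.88 and -2.55, Per3 at -2.68, -2.78 and -2.68, Nr1d1 at -1.37, -1.35 and -1.13, and Per1 at 1.48, 1.32 and 1.46. Clock was at -1.002, -0.82 and -0.63, so its ratio became smaller in size from the low to the high range. Per2 was at -0.40, 0.05 and 0.05, and Arntl at -0.34, -0.36 and 0.26, with 0 inside each interval of Per2 and Arntl. The limb contrast was -0.21 (-0.56 to 0.14), -0.31 (-0.64 to 0.01) and -0.55 (-0.92 to -0.18) in young mice, with overlapping intervals, and -0.17, -0.30 and -0.26 in aged mice. In aged mice Nr1d1 was at -1.13, -1.16 and -1.33, Per2 at 1.56, 1.13 and 1.38, and Clock at 0.56, 0.70 and 0.70. Per3 in aged mice turned from 0.31 (0.14 to 0.48) over 0.08 to -0.17 (-0.33 to 0.00). Npas2 in aged mice was at 0.32, 0.03 and -0.33, with 0 inside each interval. The aged ratios compare unlike ranges, since cardiomyocyte markers took 8.43% of UMIs in the low range of aged sham and 10.2% in that of aged I/R. In barcodes with endothelial markers the young ratios of Dbp and Per1 were -2.40 (-3.02 to -1.82) and 1.75 (0.99 to 2.59), beside -2.58 and 1.49 over all barcodes. Cardiomyocyte markers took 10.8% of the UMIs of these barcodes in young sham, beside 11.0% over all barcodes, so the values are not those of endothelial cells alone.

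The sums of some marker lists moved with I/R as well. The summed level of 4 neutrophil markers was 13.3 CPM without and 91.6 CPM with I/R in young mice, and 22.8 CPM without and 89.1 CPM with I/R in aged mice, and 4 of 4 were higher after I/R at both ages. The 4 atrial markers (Myl4, Myl7, Sln, Nppa) summed to 453, 1285, 926 and 457 CPM. After I/R 4 of 4 were higher in young mice and 0 of 4 in aged mice. Only 1 of 4 was higher in aged over young sham, so the sham sums do not speak for the list. The study used Myl4, Myl7 and Nppa as cardiomyocyte markers, and the share of atrial cells in each library was not tested. The sums of the 16 endothelial, 12 fibroblast and 14 macrophage markers spanned 1127 to 1563, 567 to 1019 and 306 to 540 CPM, with young I/R lowest in each. Log2 ratios of these sums for young I/R over sham were -0.39, -0.51 and -0.40, near the median of all tested genes at -0.48. In aged mice they were 0.02, -0.13 and 0.14, beside a median of 0.09. No marker of these lists, or of the cardiomyocyte list, was at 0 in any library. The part of such differences, and of the share of nuclear RNA that Malat1 reads, in the clock gene values was not tested.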

How the data were processed

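Left ventricle of 4 groups of mice was profiled with 1 droplet library each. Per the labels the authors ran Cell Ranger 6.0.2 on the mm10 genome, and the deposited matrices hold raw UMI counts per gene and barcode, unscaled, with the gene names and barcodes in separate deposited files. Groups were taken from the labels. No doublet caller was run and no doublets were removed, so barcodes with markers may hold several cells. RNA free in the suspension was not corrected for either, so the markers and members in a barcode need not come from 1 cell. The clock genes and all gene lists were chosen with earlier results of these data known.

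UMIs were summed over all barcodes of a library and divided by the total of the library to give CPM. Levels carry exact Poisson 95% intervals, and ratios of 2 libraries exact conditional intervals; means over genes and differences between ages use the normal approximation to the counting error. With 1 library per condition no test was run and no p-value is given. Counting intervals contain no spread between mice. A gene was tested in a comparison with at least 50 UMIs over both libraries. The genes named were the 10 members, further clock genes past 2-fold, the 5 nearest profiles of Arntl and of Dbp and overlapping genes; others are marked in the text.

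Alternatives were the total without Gm42418, AY036118, Malat1 and mitochondrial genes, the median of gene-wise ratios, barcodes with at least 200 genes, barcodes with 250 to 750 UMIs, leaving out shared barcodes, enlarged limbs, a minimum of 200 UMIs and, added after seeing the data, subtraction of the median of genes of like span (GENCODE vM21, GRCm38, the same assembly as mm10). Positions are from that annotation, promoters from RefSeq. The tools were Python 3.11.15, matplotlib 3.10.9, pandas 2.3.3, scipy 1.17.1 and numpy 2.4.6. The code of the intervals was tested on simulated Poisson counts, the error that the intervals assume. Those counts hold no spread between mice, so the test does not speak to that spread. The cell names of the study and its other measurements were not used here.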

Additional observations from a re-analysis of the deposited data

Results flagged for a closer look

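Clock was the member whose I/R ratio lay on opposite sides of 0 in the 2 ages with both counting intervals clear of 0. The young log2 ratio minus the aged one was -1.45 (-1.57 to -1.33). Under the median-of-ratios scaling the young and aged ratios were -0.36 and 0.57, and relative to genes of like span -0.077 and 0.43. The interval covers counting error only, each ratio rests on 1 library per condition, and the difference was not tested. Per2 and Per3 also had ratios of opposite sign, but for Per2 in young mice and for Per3 in aged mice the counting interval held 0.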

How the results depend on the processing

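Each interval in the text covers counting error only, and a single library per condition leaves the spread between mice unknown. Values below are log2, and the cause of a shift was not tested where none is given. The limb contrast stayed within its counting interval under the 3 choices of barcodes and with enlarged limbs; the 2 scalings cannot move it. Leaving out shared barcodes moved 0 of 40 member ratios beyond their intervals, and each barcode choice by depth moved 11 of 40. Scaling shifts all ratios of a comparison together: against total UMIs, the median of gene-wise ratios added 0.43 to young I/R over sham, -0.09 to aged I/R over sham, 0.14 to aged over young sham and -0.38 to aged over young I/R. It turned Dbp in aged over young sham to 0.051 and Nr1d1 in aged over young I/R to -0.020.
Under it the limb means (positive, negative, output) were -0.23, -0.27 and -1.31 in young I/R over sham, the negative and output means 0.039 and -0.59 in aged I/R over sham and -0.052 and -0.089 in aged over young sham, and the 3 means 0.23, 0.26 and 0.63 in aged over young I/R; 2 members were at least 2-fold lower in young I/R.
Without the abundant transcripts the negative and output means were -0.54 and -1.58 in young and 0.041 and -0.59 in aged I/R over sham, the output mean -0.16 in aged over young sham, and the 3 means 0.43, 0.46 and 0.83 in aged over young I/R; 3 members were at least 2-fold lower in young I/R.
With at least 200 genes per barcode the negative and output means were -0.88 and -1.99 in young I/R over sham and -0.40 and -0.47 in aged over young sham. With 250 to 750 UMIs they were -0.83 and -1.87, and -0.33 and -0.39, and also 0.064 and -0.55 in aged I/R over sham and 0.57 and 0.93 in aged over young I/R. With either choice 1 member, Per3, was at least 2-fold lower in aged sham.
Relative to genes of like span the 3 means were 0.053, -0.25 and -1.41 in young I/R over sham, 0.046, -0.049 and -0.17 in aged over young sham and -0.066, 0.21 and 0.70 in aged over young I/R, and the positive and negative means -0.041 and 0.043 in aged I/R over sham. The contrast was -0.63, -0.073 and 0.42 in young I/R, aged I/R and aged over young I/R, and 2 members were at least 2-fold lower in young I/R.
With a minimum of 200 UMIs, 2.94% of all genes were at least 2-fold higher and 1.14% lower in aged I/R over sham, and 1.07% and 3.56% in aged over young sham. Shares of all genes past 2-fold were counted on total UMIs over all barcodes only. The counts of members under the other scalings, barcode choices and the span alternative therefore have no share beside them.
No paired analysis was possible because each condition has 1 library and the labels carry no replicate numbers.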
